A study of Mus musculus with 6 samples.

Results

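The genes described here encode enzymes that write chemical marks on RNA, chiefly on transfer RNA (tRNA) and ribosomal RNA (rRNA), together with related methyltransferases and partner subunits. They were taken by name: the protein-coding genes of the count table whose mouse symbol begins with Trmt, Nsun or Mettl, with Elp and a digit, or with Pus and a digit or the letter l. The rule found 62 of the 21998 protein-coding genes among 54838 rows, of which 16 are Trmt, 6 Nsun, 28 Mettl, 6 Elp and 6 Pus genes. The name rule reaches beyond tRNA and rRNA. By their known roles 40 of the 62 act on tRNA or rRNA or belong to a complex that does, 4 act on mRNA or snRNA, 9 modify proteins, and 9 are membrane-associated or less well known Mettl and Nsun genes.

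All cells came from I1DN, a mouse acute myeloid leukemia (AML) on a C57BL/6 background in which the stem and progenitor cells of fetal liver carry introduced IDH1 R132H, DNMT3A R882H and Nras G12D. The leukemia was grown in sub-lethally irradiated congenic Ptprca mice, so blood cells of the host were not wholly removed, and both groups share this genotype and host. One group of 3 mice received vehicle and the other group of 3 mice received AG636, an inhibitor of the pyrimidine synthesis enzyme DHODH, given orally b.i.d. at 100 mg/kg. Leukemic cells were sorted from bone marrow and spleen by cKit and CD11b. The sources used here describe this gate in 2 ways, as cKit-positive and CD11b-negative or as cKit-high and CD11b-low, and give more than 1 duration of treatment, so neither is settled here. The comparison asks which transcripts differ in these cells when pyrimidine synthesis is inhibited.

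tRNA and rRNA are modified after transcription at many positions by methyltransferases, pseudouridine synthases and larger complexes such as Elongator. Marks in the anticodon loop tune decoding, marks in the body of a tRNA stabilise its fold, and marks on rRNA are placed while ribosomes are assembled. Growing cells, leukemic cells among them, need many ribosomes and tRNAs, and several of these enzymes work only as pairs of a catalytic and a partner subunit.

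The libraries sample the 3′ end of an mRNA and a longer transcript gives no more reads, so levels of different genes are set side by side without a correction for length. They are given as CPM, read counts brought to a common library size. Totals ranged from 4634963 to 7906589 counts per sample, and 3 counts corresponded to 0.392 to 0.637 CPM. Of the 62 genes, 53 had enough counts to be tested, with 150 to 13790 counts each over the 6 samples. The other 9, Mettl11b, Mettl21c, Mettl21e, Mettl24, Mettl7a2, Mettl7a3, Mettl7b, Nsun7 and Trmt9b, held at most 14 counts in total and 4 of them held 0.

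Genes of this group were more often lower than higher with AG636. At an adjusted p under 0.05 in edgeR's quasi-likelihood F test, with the Benjamini-Hochberg adjustment made over all genes tested, 12 of the 53 tested were lower (22.6%), against 11.0% of all 11092 genes tested. Only Mettl7a1 and Mettl27 were higher (3.77%), against 10.3% of all genes. Of the 39 not called, 26 had a log2 fold change below 0 and 13 above. The median log2 fold change of the 53 was -0.32, beside 0.03 over all genes, and the range was -1.61 to 1.13. All genes split into 1222 lower and 1146 higher, and into 913 and 1483 when library size alone was used for scaling, which moved the median of all genes to 0.12. The median of the 53 lay 0.35 below that of all genes under both scalings. A change of scaling shifts all genes by nearly the same amount, so this gap could hardly differ and is no check. Among the 31 tested genes whose exons overlap no other gene, 5 were lower (16.1%) and 2 higher (6.45%), against 10.5% and 11.0% of all 7029 such genes, and their median log2 fold change was -0.21 beside 0.04. The count of 12 rested in part on AG636 replicate 3, without which 7 were called lower. Over all genes, 701 were called lower without Vehicle replicate 1, 692 without Vehicle replicate 2, 630 without AG636 replicate 1 and 452 without AG636 replicate 3.

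Separation of single values was also common. In 22 of the 53 genes each AG636 value was below each vehicle value (background 20.6%) and in 5 each was above (background 20.5%). For a gene with no overlap the exact permutation test gives a two-sided p of 0.1, the smallest that 3 against 3 allows. The summed level of the whole group was 2989, 2784 and 2544 CPM in the vehicle mice and 2063, 2177 and 1959 CPM in the AG636 mice, a mean of 2772 ± 222 against 2066 ± 109 (SD, n = 3; exact permutation p = 0.1). Abundant genes weigh most in this sum. The mean of Trmt112, which was not called, was 457 CPM with vehicle and 366 CPM with AG636, and that of Nsun2 386 and 183 CPM. Among the AG636 mice, replicate 2 had the highest level in 8 of the 12 genes called lower. Among the vehicle mice, replicate 3 had the lowest level in 6 of the 12.

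The vehicle and AG636 samples separated along the first principal component, which held 58.6% of the variance. Cell type markers differed as well. For the counts that follow, 11.0% of all genes tested were called lower and 10.3% higher. The summed level of 10 mature neutrophil markers was 1042 to 2377 CPM with vehicle and 2902 to 5896 CPM with AG636, with 7 of the 10 called higher. Monocyte and macrophage markers stood at 60.3 to 102 against 120.4 to 205 CPM. Of these 9, 7 were tested, all 7 with a log2 fold change above 0, and 3 were called higher. One of the 3 was Itgam, the gene of CD11b itself, at 12.1, 18.3 and 27.0 CPM with vehicle and 60.1, 31.3 and 41.2 CPM with AG636. Cd14 and Mrc1 had too few counts to be tested. Cd14 went the other way, at 3.39, 1.96 and 5.64 against 1.27, 0.619 and 1.89 CPM. Kit, which marks the sorted cells, was at 43.1, 31.8 and 41.0 against 46.3, 37.3 and 44.7 CPM and its groups overlapped. Of 9 myeloid progenitor markers, which summed to 2592 to 5155 against 2114 to 5426 CPM, 8 were tested and 1 was called higher, Gata2. Of 9 erythroid markers 3 were called lower, Klf1 and Car2 among them, and the sum of the 9 was 1965 to 5430 CPM with vehicle and 2121 to 3560 CPM with AG636. Megakaryocyte markers summed to 778 to 1216 against 1054 to 1717 CPM. Of these 6, 5 were tested and 2 called higher, while Ppbp was lower without overlap (log2 fold change -0.74, edgeR adjusted p = 0.0534). B cell markers summed to 9.09 to 19.0 against 18.6 to 22.9 CPM, with 2 of 8 tested. T and NK cell markers, mostly Nkg7, summed to 193 to 334 against 259 to 494 CPM, with 1 of 9 tested. In the last 2 lists 0 were called by edgeR and 0 had an unadjusted p under 0.05, but most of their genes had too few counts to be tested. No list had a gene at 0 counts in every sample. The part of these cell types in the differences of the modification genes was not tested, and fewer cells of a type cannot be told apart from less RNA per cell in bulk samples.

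**Figure D1:**
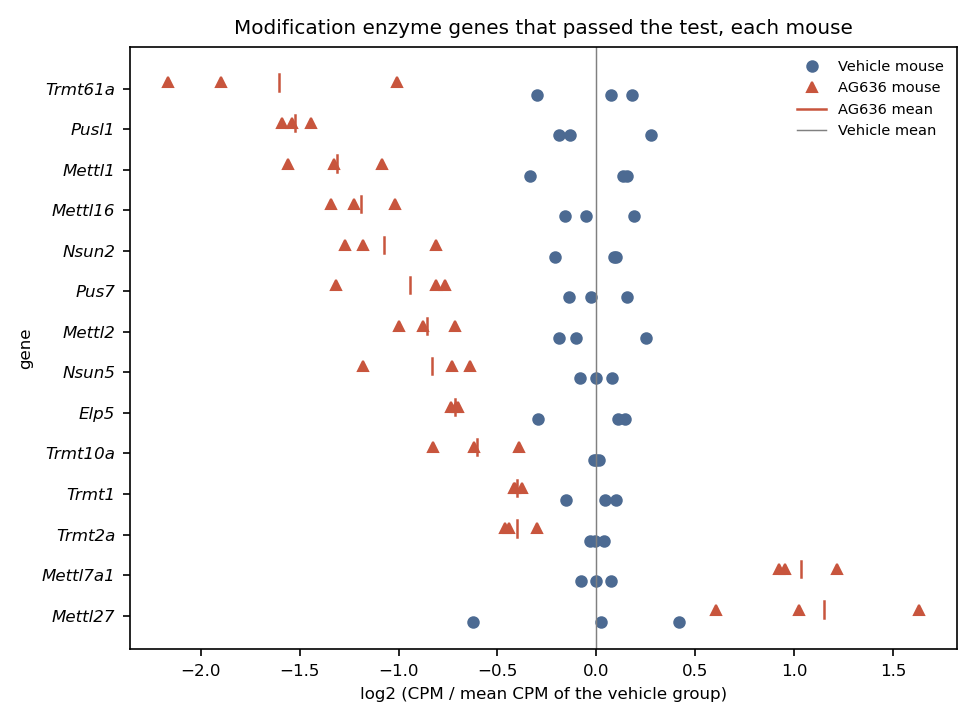
Level of the 14 genes that passed the test in each of 6 mice, as log2 of CPM over the vehicle mean (x axis) for each gene (y axis); circles are vehicle mice, triangles AG636 mice and bars the AG636 mean. In every gene shown the 3 AG636 mice lie on one side of the 3 vehicle mice, with 12 genes lower and 2 higher.

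Among the genes classed as methyltransferases of cytosolic and nuclear tRNA, 17 of 18 were tested and the median log2 fold change was -0.40. Of the 17, 7 were called lower (41.2%) and 0 higher, against 11.0% and 10.3% of all genes tested. Trmt61a (ENSMUSG00000060950, chr12:111678105-111683902, plus strand, mm10) encodes the catalytic subunit of the enzyme that methylates an adenosine in the body of tRNA. In the vehicle mice its level was 68.3, 63.4 and 48.9 CPM, and in the AG636 mice 16.1, 29.9 and 13.4 CPM. The groups did not overlap, AG636 replicate 2 was the highest treated mouse, and the mean fell from 60.2 ± 10.1 to 19.8 ± 8.84 CPM (SD, n = 3). Trmt61a had a log2 fold change of -1.61 (SE 0.28, edgeR adjusted p = 0.00585). This was the largest decrease among the 53 genes.

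Mettl1 (ENSMUSG00000006732, chr10:127041414-127046365, plus strand) is the catalytic subunit that places N7-methylguanosine on tRNA. Its 3 vehicle values were 78.6, 77.6 and 56.0 CPM and its 3 AG636 values 28.2, 33.4 and 24.0 CPM. No AG636 value reached the lowest vehicle value. On the log2 scale the fitted difference was -1.31 (SE 0.19, edgeR adjusted p = 0.00329). Nsun2 (ENSMUSG00000021595, chr13:69533746-69635780, plus strand) methylates cytosines of many tRNAs and was among the most abundant genes of the group. Nsun2 was at 410.4, 413 and 334 CPM in the vehicle mice and at 170.1, 219.8 and 159.9 CPM in the AG636 mice. The treated mice lay well below the vehicle mice, and the group mean fell from 386 ± 44.7 to 183 ± 32.1 CPM (SD, n = 3). The log2 fold change was -1.07 (SE 0.15, edgeR adjusted p = 0.00320). The 120 bases before the RefSeq starts of these transcripts (GRCm38.p6, written 5′ to 3′ on the strand of the gene) are shown because these genes, with Pusl1 and Mettl16 printed further on, are the 5 that fell with the lowest adjusted p. Capitals mark a full cyclic AMP response element, TGACGTCA, in that of Trmt61a, and the others hold none of the marked motifs.
Trmt61a, chr12:111677985-111678104, plus strand: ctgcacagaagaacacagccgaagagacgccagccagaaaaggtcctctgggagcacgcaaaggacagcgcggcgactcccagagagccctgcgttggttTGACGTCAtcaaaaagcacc
Mettl1, chr10:127041812-127041931, plus strand: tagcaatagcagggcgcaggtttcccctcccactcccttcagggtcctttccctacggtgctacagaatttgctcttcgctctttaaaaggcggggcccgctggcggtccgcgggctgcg
Nsun2, chr13:69611896-69612015, plus strand: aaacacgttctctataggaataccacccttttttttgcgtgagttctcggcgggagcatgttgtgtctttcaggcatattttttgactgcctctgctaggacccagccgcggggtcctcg

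Mettl2 (ENSMUSG00000020691, chr11:105126425-105140394, plus strand) methylates a cytidine of the anticodon loop. In the vehicle mice its level was 39.0, 28.8 and 30.5 CPM, and in the AG636 mice 17.8, 20 and 16.4 CPM. Every treated mouse was below every vehicle mouse. Mettl2 had a log2 fold change of -0.86 (SE 0.19, edgeR adjusted p = 0.0131). It lost the call without AG636 replicate 3 (adjusted p = 0.0562). Its relative Mettl6 was at 44.9, 48.4 and 39.1 CPM with vehicle and 36.3, 33.8 and 43.4 CPM with AG636, and its groups overlapped (log2 fold change -0.22, SE 0.16, edgeR adjusted p = 0.342).

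Trmt10a, Trmt2a and Trmt1 showed smaller differences. Trmt10a (ENSMUSG00000004127, chr3:138143448-138159821, plus strand) methylates a guanosine of tRNA. Its 3 vehicle values were 43.7, 44.6 and 44.1 CPM and its 3 AG636 values 24.9, 33.6 and 28.7 CPM. Vehicle values were nearly equal and each AG636 value lay below them. On the log2 scale the fitted difference was -0.60 (SE 0.16, edgeR adjusted p = 0.0261). Trmt2a (ENSMUSG00000022721, chr16:18248679-18254772, plus strand) methylates a uridine. Trmt2a was at 76.1, 80.0 and 77.5 CPM in the vehicle mice and at 63.3, 57.3 and 56.6 CPM in the AG636 mice. No treated mouse reached the lowest vehicle mouse. The log2 fold change was -0.40 (SE 0.12, edgeR adjusted p = 0.0434). Trmt1 (ENSMUSG00000001909, chr8:84686307-84699808, plus strand) methylates a guanosine between the D and anticodon arms. In the vehicle mice its level was 100.0, 96.3 and 83.8 CPM, and in the AG636 mice 70.1, 72.0 and 70.0 CPM. The treated mice were closely spaced below the vehicle mice. Trmt1 had a log2 fold change of -0.40 (SE 0.12, edgeR adjusted p = 0.0444). These 3 calls were near the threshold: Trmt10a lost it in 4 of the 6 fits that left out 1 mouse, Trmt1 in 5 and Trmt2a in 6, with adjusted p up to 0.0883, 0.123 and 0.139.

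The other tested genes of this class were not called. Trmt5, which methylates the guanosine beside the anticodon, had a log2 fold change of -0.67 with no overlap between groups. Those of Trmt12 and Trmt44 were -0.51 and -0.38. Those of Trmt13, Trmt11, Trmt10b, Nsun6 and Trmt1l lay between -0.13 and 0.19 (adjusted p from 0.457 to 0.960).

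**Figure D2:**
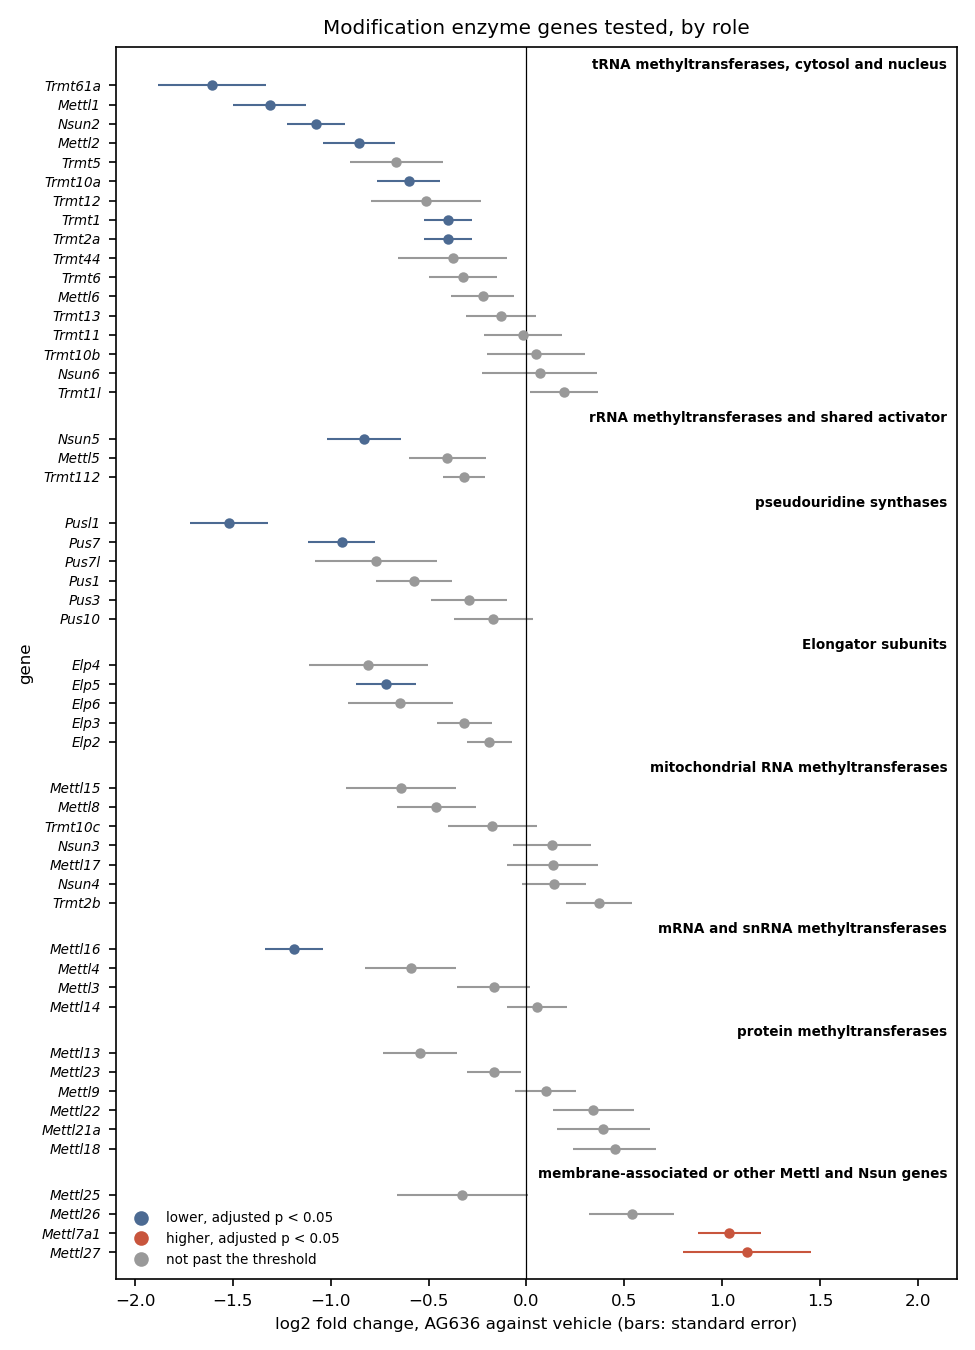
Log2 fold change of AG636 against vehicle (x axis) for 52 of the 53 genes tested (y axis), grouped by known role; points are edgeR estimates from 3 mice a group and bars are 1 standard error. Each gene stands in 1 class only, whatever other RNAs it may act on. The classes of cytosolic and nuclear tRNA methyltransferases, pseudouridine synthases and Elongator subunits lie mainly left of 0. Those of mitochondrial RNA methyltransferases and protein methyltransferases lie on both sides, and the 2 genes called higher are in the last class.

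Of 3 genes acting on cytosolic rRNA, 1 was called lower, beside 11.0% of all genes tested. Nsun5 (ENSMUSG00000000916, chr5:135369953-135376805, plus strand) methylates a cytosine of the large-subunit rRNA. Its 3 vehicle values were 31.6, 28.3 and 29.9 CPM and its 3 AG636 values 18.1, 19.2 and 13.2 CPM. AG636 replicate 3 was the lowest and no values overlapped. On the log2 scale the fitted difference was -0.83 (SE 0.19, edgeR adjusted p = 0.0153). Without that mouse the adjusted p was 0.0603. Mettl5, which methylates an adenosine of the small-subunit rRNA, was not called (log2 fold change -0.40, SE 0.19, edgeR adjusted p = 0.161) and its groups overlapped. Trmt112, the activator subunit shared by Mettl5, the rRNA enzyme Bud23 and several tRNA enzymes, had the highest level of the 53 genes. Trmt112 was at 469, 489 and 414 CPM in the vehicle mice and at 378, 355 and 366 CPM in the AG636 mice. The treated mice were below the vehicle mice without overlap, but the difference missed the threshold. The log2 fold change was -0.32 (SE 0.11, edgeR adjusted p = 0.0609).

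All 6 pseudouridine synthases had a log2 fold change below 0, with a median of -0.67, and 2 were called lower (33.3%, against 11.0% of all genes tested). Pusl1 (ENSMUSG00000051557, chr4:155887879-155891781, minus strand) is a relative of Pus1. In the vehicle mice its level was 37.8, 27.3 and 28.4 CPM, and in the AG636 mice 11.5, 10.7 and 10.4 CPM. The treated mice were close to each other and far below the vehicle mice, and the mean fell from 31.2 ± 5.75 to 10.9 ± 0.556 CPM (SD, n = 3). Pusl1 had a log2 fold change of -1.52 (SE 0.20, edgeR adjusted p = 0.00271). The bases before its RefSeq start hold a GC box on each strand, GGGCGG or CCGCCC, in capitals.
Pusl1, chr4:155891763-155891882, minus strand: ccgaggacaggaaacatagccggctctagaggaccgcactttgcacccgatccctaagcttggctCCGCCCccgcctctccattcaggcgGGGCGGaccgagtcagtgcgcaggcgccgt

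Pus7 (ENSMUSG00000057541, chr5:23740648-23783711, minus strand) modifies uridines of tRNA and of other RNAs. Its 3 vehicle values were 85.8, 70.0 and 75.6 CPM and its 3 AG636 values 44.0, 45.4 and 31.0 CPM. The highest AG636 value was well under the lowest vehicle value. On the log2 scale the fitted difference was -0.94 (SE 0.17, edgeR adjusted p = 0.00685). Pus1, which modifies several tRNA positions, was at 47.2, 29.7 and 41.4 CPM with vehicle and 26.5, 28.3 and 24.4 CPM with AG636. The groups were separate by a narrow margin and it was not called (log2 fold change -0.58, SE 0.20, edgeR adjusted p = 0.0603). Neither were Pus7l (log2 fold change -0.77, SE 0.31, edgeR adjusted p = 0.102), Pus3 (log2 fold change -0.29, SE 0.19, edgeR adjusted p = 0.302) or Pus10 (log2 fold change -0.17, SE 0.20, edgeR adjusted p = 0.572), and their groups overlapped.

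Elongator places the first groups of a longer modification on the wobble uridine of tRNA. Elp5 was the 1 of its 6 subunit genes that was called lower (16.7%), beside 11.0% of all genes tested. Elp5 (ENSMUSG00000018565, chr11:69968222-69982517, minus strand) is part of the ring of Elp4, Elp5 and Elp6. Elp5 was at 69.9, 71.8 and 52.9 CPM in the vehicle mice and at 39.9, 39.0 and 39.6 CPM in the AG636 mice. The treated mice were almost equal, below each vehicle mouse. The log2 fold change was -0.72 (SE 0.15, edgeR adjusted p = 0.0126). Without Vehicle replicate 2 the adjusted p was 0.0510. Elp4 was at 23.7, 10.2 and 16.1 against 10.8, 9.07 and 8.49 CPM, with overlap (log2 fold change -0.81, SE 0.31, edgeR adjusted p = 0.0841). Elp6 was at 12.3, 10.2 and 12.3 against 5.31, 9.69 and 7.17 CPM, without overlap (log2 fold change -0.64, SE 0.27, edgeR adjusted p = 0.108). Both ring genes had estimates near that of Elp5 but wider errors. The catalytic subunit Elp3 was at 79.0, 71.3 and 77.5 against 68.2, 51.6 and 62.9 CPM (log2 fold change -0.32, SE 0.14, edgeR adjusted p = 0.131). The subunit gene Elp2 was at 135, 141 and 124 against 111, 123 and 117 CPM without overlap (log2 fold change -0.19, SE 0.12, edgeR adjusted p = 0.262).

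None of the 7 genes classed as methyltransferases of mitochondrial RNA was called by edgeR, DESeq2 or limma-voom. Of these 7, 2 had an unadjusted p under 0.05. Their median log2 fold change was 0.13, with 3 below 0 and 4 above. Mettl15, an enzyme of the small mitochondrial rRNA, had the lowest (log2 fold change -0.64, SE 0.28, edgeR adjusted p = 0.124) and Trmt2b, a uridine methyltransferase, the highest (log2 fold change 0.37, SE 0.17, edgeR adjusted p = 0.141). Mettl8 was at -0.46, Trmt10c, a subunit of mitochondrial RNase P, at -0.17, Nsun3 at 0.13, Mettl17 at 0.13 and Nsun4 at 0.14 on the log2 scale. Trmt61b, whose row in the table is annotated as an antisense gene and therefore is not counted among the 62, had 86, 113 and 89 counts with vehicle and 53, 68 and 55 with AG636. These counts are not scaled to library size, unlike the CPM given for other genes. The libraries held 5902108, 7906589 and 4866168 counts with vehicle and 4634963, 4723223 and 5097390 with AG636.

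Of the 4 mRNA and snRNA methyltransferases only Mettl16 was called lower, beside 11.0% of all genes tested. Mettl16 (ENSMUSG00000010554, chr11:74770830-74828525, plus strand) methylates an adenosine of the U6 snRNA and hairpins of the transcript for the methionine adenosyltransferase that makes the methyl donor. In the vehicle mice its level was 118, 99.7 and 92.6 CPM, and in the AG636 mice 44.2, 40.8 and 51.0 CPM. Every vehicle mouse was well above every treated mouse, and the mean fell from 103 ± 13.0 to 45.3 ± 5.17 CPM (SD, n = 3). Mettl16 had a log2 fold change of -1.19 (SE 0.15, edgeR adjusted p = 0.00245). It had the lowest adjusted p of the group. Capitals in the sequence before its RefSeq start mark the palindrome CTCGCGAG and a CCAAT box read from the other strand, ATTGG.
Mettl16, chr11:74770743-74770862, plus strand: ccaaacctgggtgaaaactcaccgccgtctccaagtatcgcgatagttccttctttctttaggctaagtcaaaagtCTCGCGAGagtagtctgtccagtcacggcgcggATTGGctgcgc

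The core m6A writers differed less. Mettl3, the catalytic subunit of the m6A complex of mRNA, was at 34.2, 23.7 and 32.6 against 29.1, 25.8 and 25.5 CPM (log2 fold change -0.17, SE 0.19, edgeR adjusted p = 0.546). Its partner Mettl14 was at 46.0, 41.3 and 46.2 against 42.7, 54.0 and 41.7 CPM (log2 fold change 0.05, SE 0.15, edgeR adjusted p = 0.827), and without Vehicle replicate 2 or AG636 replicate 2 its estimate was below 0. Both pairs of groups overlapped. Of 8 further genes of this pathway, the m6A complex partners and erasers, 0 were called by edgeR, DESeq2 or limma-voom and 0 had an unadjusted p under 0.05, with log2 fold changes from -0.20 to 0.23. Mettl4, which acts on the U2 snRNA, was not called (log2 fold change -0.59, SE 0.23, edgeR adjusted p = 0.0933).

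Mettl7a1 and Mettl27 were the genes called higher. Mettl7a1 (ENSMUSG00000054619, chr15:100304140-100328662, plus strand) encodes a membrane-associated methyltransferase. Its 3 vehicle values were 23.4, 21.1 and 22.1 CPM and its 3 AG636 values 42.1, 42.9 and 51.5 CPM. The groups were far apart beside their own spread. On the log2 scale the fitted difference was 1.04 (SE 0.16, edgeR adjusted p = 0.00411). Its near copies Mettl7a2 and Mettl7a3 held 1 and 14 counts in total, and how reads that match several copies were assigned is not given in the sources used here, so its level is uncertain. Mettl27 (ENSMUSG00000040557, chr5:134932368-134942637, plus strand) had the fewest counts of the genes called, 405. Mettl27 was at 7.84, 10.3 and 5.01 CPM in the vehicle mice and at 15.7, 11.8 and 24.0 CPM in the AG636 mice. The values were scattered in both groups, and only a narrow gap lay between them. The log2 fold change was 1.13 (SE 0.33, edgeR adjusted p = 0.0358). The call was lost in 5 of the 6 fits that left out 1 mouse, all but that without AG636 replicate 2. In this class Mettl26 (log2 fold change 0.54, SE 0.22, edgeR adjusted p = 0.101) and Mettl25 (log2 fold change -0.33, SE 0.33, edgeR adjusted p = 0.508) were not called.

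Of the 6 protein methyltransferases tested, 0 were called by edgeR and 1 had an unadjusted p under 0.05. That was Mettl13, which methylates elongation factor eEF1A, at 51.2, 45.8 and 32.6 against 29.3, 32.0 and 27.7 CPM without overlap (log2 fold change -0.54, SE 0.19, edgeR adjusted p = 0.0637). Mettl23 was at -0.16, Mettl9 at 0.10, Mettl22 at 0.34, Mettl21a, an enzyme of HSP70 chaperones, at 0.39, and Mettl18, which methylates ribosomal protein Rpl3, at 0.45 on the log2 scale. Split by role, 11 of the 39 tested genes with tRNA or rRNA roles were called lower (28.2%) and 0 higher, with a median log2 fold change of -0.40. Of the 14 with other roles 1 was lower (7.14%) and 2 higher (14.3%), with a median of 0.08. Over all genes tested 11.0% were lower and 10.3% higher. The classes were chosen with earlier results of these data known, and the difference between them was not tested.

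Partner subunits were then compared within each mouse, as the difference of their log2 CPM, in 5 comparisons. Mettl1 needs the partner Wdr4, which is not one of the 62 genes. In the vehicle mice its level was 59.2, 52.8 and 49.7 CPM, and in the AG636 mice 24.2, 24.1 and 17.2 CPM. Wdr4 fell as Mettl1 did. Wdr4 had a log2 fold change of -1.31 (SE 0.18, edgeR adjusted p = 0.00319). The level of Mettl1 over Wdr4 was 0.38 ± 0.19 with vehicle and 0.39 ± 0.15 with AG636 (SD, n = 3; difference 0.01, exact permutation p = 1), so the difference between groups was smaller than the spread between mice.

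Trmt61a works with Trmt6, its non-catalytic partner. Trmt6 was at 189, 152 and 158 CPM with vehicle and 131, 164 and 103 CPM with AG636, with overlap (log2 fold change -0.32, SE 0.17, edgeR adjusted p = 0.200). Trmt61a over Trmt6 was -1.47, -1.26 and -1.69 with vehicle and -3.03, -2.45 and -2.94 with AG636 on the log2 scale. The groups did not overlap, with a difference of means of -1.33 (exact permutation p = 0.1, the smallest possible, and 0.167 after Benjamini-Hochberg adjustment over the 5). Mettl3 over Mettl14 differed by -0.20 and overlapped (exact permutation p = 0.4, adjusted 0.5). The other 2 comparisons were chosen after their values were seen. Mettl16 over Mettl3 differed by -1.03 and Mettl2 over Mettl6 by -0.63. Neither had overlap, and each was at the smallest exact permutation p of 0.1 (adjusted 0.167). For Mettl2 over Mettl6 the gap was very narrow, between -0.750 in Vehicle replicate 2 and -0.758 in AG636 replicate 2. No pair passed the threshold, which this number of mice cannot reach.

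**Figure D3:**
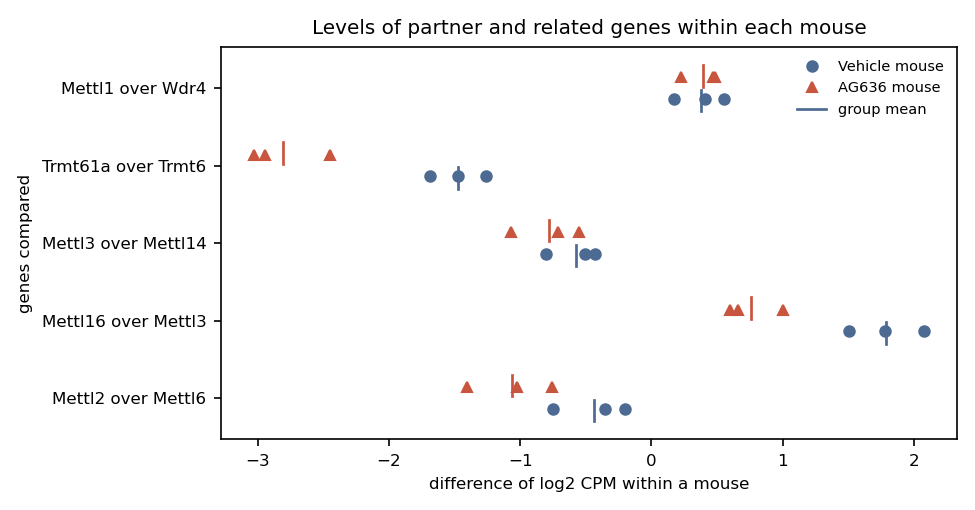
Difference of log2 CPM between partner or related genes within each mouse (x axis) for 5 comparisons (y axis); circles are vehicle mice, triangles AG636 mice and bars group means of 3 mice. Mettl1 over Wdr4 coincides in the 2 groups at 0.38 and 0.39, and Trmt61a over Trmt6 lies at -1.47 with vehicle and -2.81 with AG636.

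Genes of the same pathways that carry other names were also called lower more often than higher. Their lists were chosen with earlier results of these data known, so they are no independent check. Of 52 other tRNA modification genes tested, 11 were called lower (21.2%) and 0 higher, with a median log2 fold change of -0.34. Over all genes tested 11.0% were lower and 10.3% higher. Nat10, which acetylates cytidines of tRNA and of the small-subunit rRNA, was at 55.3, 49.3 and 53.9 CPM with vehicle and 21.9, 28.7 and 21.0 CPM with AG636. The groups were clearly separate (log2 fold change -1.15, SE 0.17, edgeR adjusted p = 0.00383). Dus2, which makes dihydrouridine, was at 22.5, 17.0 and 16.3 against 6.58, 8.25 and 6.42 CPM, the largest decrease of this list (log2 fold change -1.39, SE 0.23, edgeR adjusted p = 0.00522). The queuosine enzymes Qtrt1 and Qtrt2 both fell, with log2 fold changes of -0.90 and -0.82, as did Yrdc at -0.74, Dus1l at -0.79, Tyw5 at -0.83, Ftsj1 at -0.71, Dph3 at -0.50 and Dus4l at -1.03. Cdk5rap1, a mitochondrial enzyme, had the highest estimate of the list and was not called (log2 fold change 0.48, SE 0.18, edgeR adjusted p = 0.0738). The number called lower was 7 without Vehicle replicate 1, 6 without Vehicle replicate 2 or AG636 replicate 1, and 3 without AG636 replicate 3.

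Of 23 other rRNA modification genes, 14 were called lower (60.9%, against 11.0% of all genes tested) and 0 higher, with a median log2 fold change of -0.69. The 4 core proteins of the box H/ACA particles, which guide pseudouridylation, all fell. Dkc1, the pseudouridine synthase among them, was at 798, 764 and 620.2 CPM with vehicle and 325, 407 and 277 CPM with AG636 (log2 fold change -1.11, SE 0.16, edgeR adjusted p = 0.00329). Nhp2 was at 204, 196 and 162 against 88.6, 90.3 and 87.0 CPM (log2 fold change -1.08, SE 0.13, edgeR adjusted p = 0.00222). No values overlapped in either gene. Nop10 (log2 fold change -0.71, SE 0.11, edgeR adjusted p = 0.00408) and Gar1 (log2 fold change -0.75, SE 0.17, edgeR adjusted p = 0.0142) were the others. The 4 core proteins of the box C/D particles, which guide ribose methylation, fell as well. The methyltransferase Fbl was at 446, 499 and 415 against 231, 290.1 and 205 CPM (log2 fold change -0.91, SE 0.15, edgeR adjusted p = 0.00475), and Snu13 at 513, 475 and 457 against 272, 270.5 and 240.5 CPM (log2 fold change -0.88, SE 0.11, edgeR adjusted p = 0.00245), without overlap. Nop58 (log2 fold change -0.97, SE 0.15, edgeR adjusted p = 0.00411) and Nop56 (log2 fold change -0.69, SE 0.16, edgeR adjusted p = 0.0151) had like changes. Nop2, a relative of the Nsun genes that methylates the large-subunit rRNA, was at 130.2, 128 and 98.2 against 58.0, 69.9 and 48.7 CPM (log2 fold change -1.02, SE 0.17, edgeR adjusted p = 0.00529), and its groups did not overlap. Emg1, Ftsj3, Tsr3, Bud23 and the mitochondrial Mrm3 were the remaining 5, with log2 fold changes from -1.05 to -0.56. Without AG636 replicate 3, 9 of these genes were called lower.

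**Figure D4:**
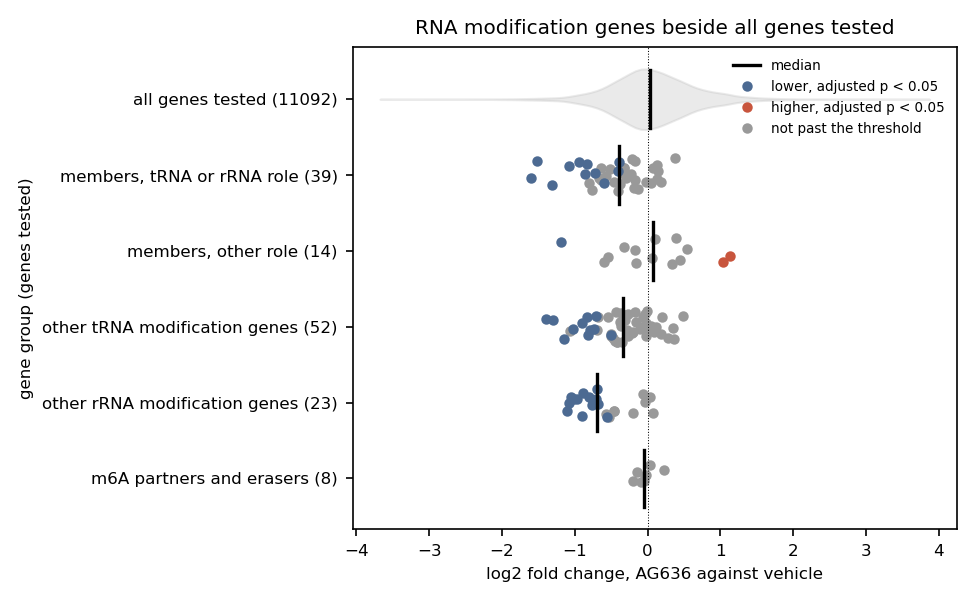
Log2 fold change of AG636 against vehicle (x axis) for gene groups (y axis, with the number of genes tested); the grey shape is the distribution over all 11092 genes, points are single genes coloured by call, spread vertically at random, and black bars are medians. The medians are 0.03 for all genes, -0.40 for the 39 genes with tRNA or rRNA roles, 0.08 for the 14 with other roles, and -0.34, -0.69 and -0.04 for the other tRNA genes, the other rRNA genes and the m6A partners.

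Promoter windows of RefSeq (GRCm38.p6) were found for 47 of the 62 genes, 57 windows in all, 9 of the genes called lower among them with 13 windows. Over the 250 bases before each start the median GC content was 60.4% for the 57 windows, 60.0% for the 13 windows and 60.0% for 10432 windows of tested protein-coding genes. Motifs were counted on both strands, and overlapping matches of different motifs were each kept. The GC box GGGCGG stood in 24 of the 57 windows (42.1%) and 6 of the 13, against 58.4% of the 10432. The CCAAT box CCAAT stood in 19 and 3, against 35.6%. The rarer motifs were found in few. The E-box CACGTG stood in 2 of 57 and 1 of 13 (background 8.59%), the YY1 core AANATGGCG in 3 and 0 (2.29%), the NRF1 core TGCGCATGC in 2 and 0 (2.69%), TGACGTCA in 4 and 1 (2.58%), CTCGCGAG in 2 and 1 (1.65%), and the amino acid response motif TGATGNAAT in 1 and 1 (0.336%), that of Pus7. Of the 5 starts printed, only that of Trmt61a begins where the gene begins in the count table, and a match of letters is no measurement of binding.

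Exons of 22 tested genes overlapped those of another gene, on the opposite strand in 21, and 7 of the 14 genes called are among them. Whether counting used the strand is not given in the sources used here, and without it the reads of both genes cannot be told apart. Pusl1 shares 697 exon bases with Ints11, which held 1252 counts and a log2 fold change of -0.38 (edgeR adjusted p = 0.0886). Nsun5 shares 665 with Pom121, at 2730 counts and -0.39 (0.147; later values in parentheses are adjusted p as well). Neither partner was called. Trmt2a shares 54 with Ranbp1, at 12733 counts and -1.13 (0.00202), the 1 partner that passed the test, and 825 with Dgcr8 (-0.15; 0.517). Elp5 shares 70 with Ctdnep1 (-0.40; 0.0610), Nsun2 shares 165 with Tent4a (-0.25; 0.398), Trmt10a shares 457 with Mttp (0.76; 0.156), and Mettl1 shares 100 with Eef1akmt3, which held 8 counts. With all overlapping genes left out, 5 of 31 were called lower, Mettl16, Trmt61a, Pus7, Mettl2 and Trmt1, and the median log2 fold change was -0.21. Genes of the other tRNA and rRNA lists overlap others as well, and their counts of calls were not split in this way. Dus2, at 439 counts, shares 150 exon bases with Dpep2 (501 counts) and 72 with Ddx28 (710 counts). Tyw5, at 409 counts, shares 718 with Maip1 (692 counts).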

How the data were processed

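The 2 groups of 3 leukemic mice, given vehicle or AG636, were compared by RNA sequencing of sorted I1DN cells. The authors deposited 1 whole-number count per gene and sample, made from QuantSeq 3′ libraries. The submitters' processing notes name FastQC, cutadapt 1.9.1, HISAT2 2.0.4, featureCounts of Subread 1.5.0-p3 and the build GRCm38 (mm10), while the study's methods name other versions of cutadapt and Subread. The annotation release, the strand setting and the handling of reads that match several places are not given in the sources used here. All 6 columns of samples were used, with 0 left unused.

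Gene symbols came from GENCODE M21, which named 54809 of 54838 rows, 98.7% of them with the same start and end, and 61 of the 62 genes described. The genes, role classes and lists were chosen with earlier results of these data known. Values in every sample are given for genes with an adjusted p under 0.05 and for subunits that work together, with some items not reported here, and other genes were named after their values were seen. The GC box, CCAAT box, cyclic AMP response element and CTCGCGAG motifs were also chosen then.

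The test used edgeR 4.0.16 in R 4.3.3 with filterByExpr (min.count 10, min.total.count 15), TMM scaling, the quasi-likelihood F test and Benjamini-Hochberg adjustment over 11092 genes. Standard errors (SE) were obtained from the log2 fold change and its F statistic, as the size of the former over the root of F. Single values were compared by exact two-sided permutation tests. Each sample is a recipient mouse of the same leukemia model, so p-values measure the spread between these recipients. Within groups, a chi-square of each pair of samples over genes was 6.22 to 14.6 per degree of freedom, far above sampling noise, so no library was counted as a repeat. Libraries carried no molecular identifiers in the sources used here, so the floors of 3 counts cover counting error only. Same-numbered samples of the 2 groups did not deviate together (r = -0.06, -0.18 and 0.22) and were not treated as pairs.

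Alternatives were DESeq2 1.42.0, limma-voom 3.58.1, size factors by median of ratios, library size alone, TMM without ribosomal protein genes, 2 other count filters, a replicate block, leaving out each sample, and an adjusted p under 0.01. The scripts were tested on simulated counts with known changes in 200 genes. edgeR recovered 90% of these in the right direction and also called 19 unchanged genes. DESeq2 recovered 95% and called 30 unchanged genes, and limma-voom recovered 88.5% and called 20.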

Additional observations from a re-analysis of the deposited data

How the results depend on the processing

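The 12 genes called lower and 2 called higher became 13 and 2 with DESeq2 and 12 and 2 with limma-voom, and 10 and 1 with the replicate number as a replicate block, under which 1046 and 914 of all genes were called; the numbers do not pair the samples. At an adjusted p under 0.01 the counts were 6 lower and 1 higher, 325 and 231 over all genes, 3 other tRNA and 9 other rRNA modification genes lower. Leaving out 1 mouse at a time gave 7 to 14 lower and 1 to 3 higher, 452 to 1298 and 399 to 1074 over all genes, 3 to 13 other tRNA and 9 to 14 other rRNA genes lower, with the lowest counts of lower calls without AG636 replicate 3. With library size alone 1 other tRNA gene was called higher, against 0. With the genes whose exons overlap another gene left out, an alternative chosen after seeing the data, 5 of 31 were called lower, fewer genes being tested, and the median log2 fold change was -0.21. Mettl14 ranged from -0.076 to 0.12 on the log2 scale over these 6 fits without 1 mouse and changed sign in 2 of them, to -0.0098 without Vehicle replicate 2 and -0.076 without AG636 replicate 2. Of the 14 genes called, 7 kept their call in all 6 fits without 1 mouse and 11 in the 8 other refits, and 0 changed sign. In those 8, Mettl27 was lost with the block, Trmt1 with the block and library size alone, and Trmt2a with these 2 and with no count filter. With no count filter 17 genes of the group were called lower and 3 higher, and 1620 and 1537 over all genes. Among genes that gained a call, Elp4 was called with no count filter (adjusted p = 0.0173, edgeR) and without Vehicle replicate 2 (0.0398). Trmt112 was called without Vehicle replicate 3 (0.0347). Other genes that gained a call are not named here. For the other losses the cause was not tested. Standard errors of the 53 genes were 0.11 to 0.33 on the log2 scale, which limits the smaller differences, and the lowest total among genes called was 405 counts.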
